A study of Mus musculus with 4 samples.

Results

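The genes described here encode voltage-gated sodium, calcium and potassium channels and the other potassium channels. They were taken from the gene names printed in the array files: names starting with Kcn, names of the form Scn, number and a or b, and names starting with Cacna1, Cacna2d, Cacnb or Cacng. This gave 134 genes on 204 probes, out of 22613 named genes and 55681 probes on the array. A gene was counted as measured where at least 1 of its probes was flagged by the scanner software as well above background in the same dye on at least 3 of 4 arrays, and 110 of the 134 were measured.

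The series compared odontoblasts, the dentin-forming cells of the tooth, with osteoblasts, the bone-forming cells, on 4 dual-colour arrays. The donors were mice aged 2 weeks with an EGFP (green fluorescent protein) transgene driven by 2.3 kb of the type I collagen promoter. Dental pulp and calvaria, the flat bones over the brain, were digested with enzymes and sorted for fluorescent cells. Every group therefore carries the same transgene, and the sort selects cells in which that promoter fragment is active. The labels name the strain C57BL/6 for the odontoblast RNA, and the design text calls the cells donor matched. On each array the odontoblast RNA is labelled as Cy5 and the osteoblast RNA as Cy3, from 250 ng of cDNA each, and no array had the dyes exchanged. No label gives the number of animals behind an array, and a p-value here reflects how much the 4 arrays differ and nothing beyond them.

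Ion channels set the membrane voltage and let cells respond to it. Voltage-gated sodium (Nav) channels open on depolarisation and carry the upstroke of action potentials, voltage-gated calcium (Cav) channels let calcium in, and voltage-gated potassium (Kv) channels repolarise the membrane. Inward rectifier and K2P (tandem-pore-domain) potassium channels hold the resting potential, and a further class of potassium channels opens with intracellular calcium or sodium. Odontoblasts lie at the pulp border near sensory nerve endings and are known to carry Nav, Cav and potassium channels. Osteoblasts are known mainly for L-type and T-type calcium channels and for large-conductance potassium channels.

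Each ratio is log2 of the Cy5 signal over the Cy3 signal, given as the mean with the moderated standard error (SE) of the limma fit over 4 arrays, and a positive ratio means more signal in Cy5. Taken as lists, osteoblast and odontoblast markers ran against the dye labels. All 11 osteoblast markers had a positive mean ratio, with a list median of 2.65 and 4 members higher in Cy5 (Ifitm5, Pth1r, Phospho1 and Col1a2). Of these markers, Alpl (0.05) and Sp7 (0.02) lay near 0. The 9 odontoblast markers had a median of -1.95, and 3 were higher in Cy3 (Wnt10a, Bmp7 and Sall1). The list was not uniform, as 3 of the 9 had a positive mean, Smpd3 (1.41), Phex (0.38) and Cpne7 (0.29), none of them called. Dspp, a dentin matrix gene, had ratios of -2.98, -1.79, -1.80 and -1.21 on arrays 1 to 4 (limma, adjusted p = 0.0603). The genes below are therefore described by dye, and with the labels exchanged every sign would turn. Between 67.8% and 80.9% of probes lay well above background in Cy3, and 75.5% to 85.2% in Cy5. Fewer cells of a type and less RNA per cell cannot be told apart in such pools.

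Of the 110 measured channel genes, 3 passed an adjusted p under 0.05, which is 2.73% against 2.20% of all 18738 genes tested and 1.64% of all 37409 features, unnamed probes included. At an unadjusted p under 0.05 there were 29 (26.4%), against 21.4% of all genes. Counts by class and by list below are to be read beside these shares of all genes. Of the 3 genes with an adjusted p under 0.05, 2 were higher in Cy5, Kcne4 and Kcnk1 (1.31% of all genes were called in that direction), and 1 in Cy3 (0.886% of all genes). The median ratio of the 110 genes was -0.02, beside 0.01 for all genes, and the median size of the ratio was 0.40 beside 0.35. As many as 36 members (32.7%) had the same sign on all 4 arrays, against 31.5% of all genes. A stricter description, 1 sign on all arrays and a mean of at least 2-fold, held for 20 members (18.2%) against 9.74% of all genes. For 52 members (47.3%, against 46.6% of all genes) the unadjusted 95% interval of the ratio lay wholly within 2-fold of equality. The channel genes were thus split between the dyes, with 53 positive and 57 negative mean ratios.

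**Figure D1:**
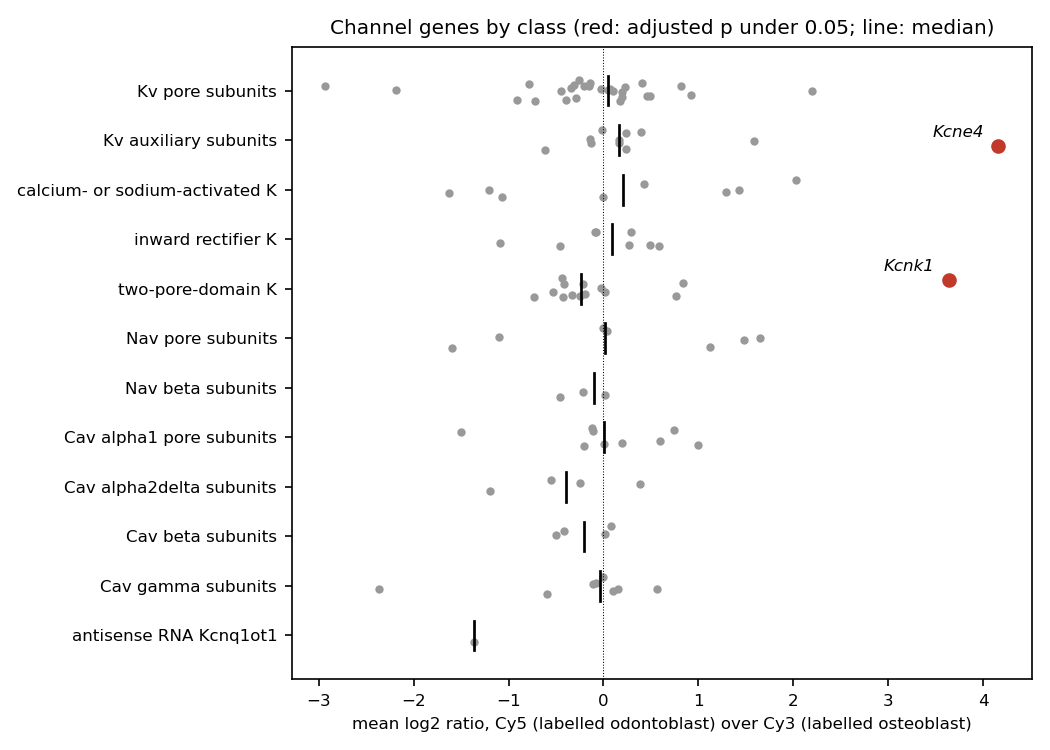
Mean log2 ratio of Cy5 (labelled odontoblast) over Cy3 (labelled osteoblast) for 105 of the 110 measured channel genes (points), by class, with the median over all measured genes of the class as a vertical line. Kcnk1 at 3.64 and Kcne4 at 4.16 (red) have an adjusted p under 0.05, while the medians of classes with more than 1 gene lie between -0.40 and 0.21.

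Kcnk1 and Kcne4 are shown by the part of the message that the array read. The lines give bases 1 to 30 of each 60-base probe, 5′ to 3′, as deposited; Kcne4 had a pair of probes.
Kcnk1 probe: cctaacaaactcaagagaaaatcggtacga
Kcne4 probe a: tatgtccttctatggcgttttcctgatcgg
Kcne4 probe b: gagaaagatgtgttgacttaaagacacagt
On mm9, the build named in the file headers, the Kcnk1 probe lies at chr8:128554281-128554340 on the plus strand and the Kcne4 probes at chr1:78814337-78814396 and chr1:78815838-78815897 on the plus strand. Exon and UTR annotation of that build was not used here. The Kcne4 probes start 1501 bases apart and share no sequence position, so they are separate readings of the gene. Over all 204 channel probes the median GC content was 45.0%, beside 43.3% for the whole array.

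Detection by the scanner flags differed between classes. All 14 K2P genes, all 4 Nav beta subunits, all 4 Cav beta subunits, all 4 alpha2delta subunits and all 8 gamma subunits were measured. The inward rectifiers had the lowest share, 8 of 15, followed by the calcium- or sodium-activated class with 8 of 12 and the Kv pore subunits with 31 of 40. In all, 82.1% of the channel genes were measured, beside 82.9% of all genes on the array, and 93 (69.4%) were well above background in both dyes on all 4 arrays, beside 67.9%. The measured genes were kept through either dye, so a gene bright in 1 dye alone could enter.

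**Figure D2:**
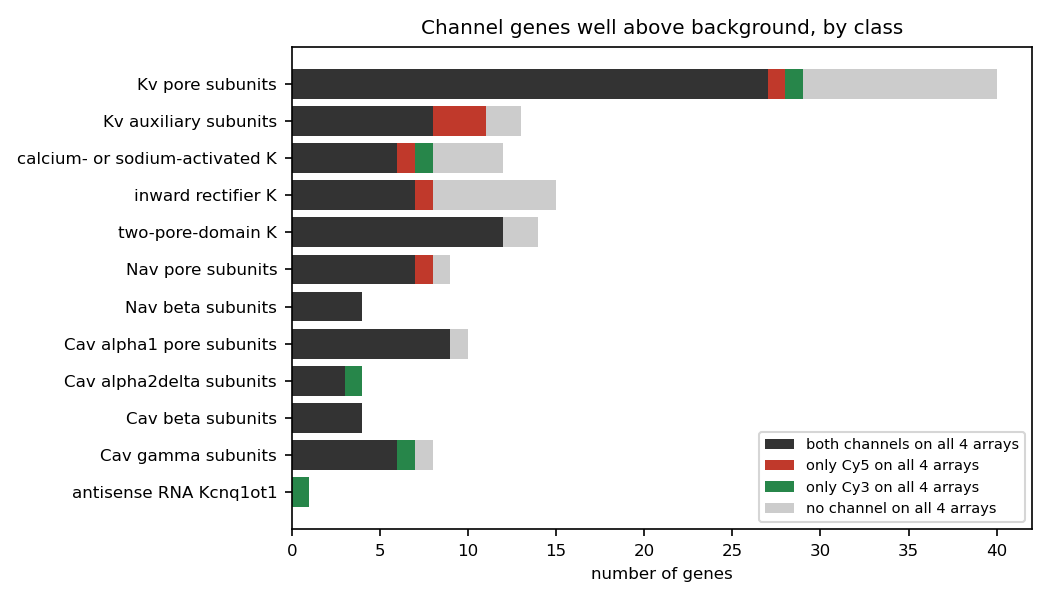
Number of channel genes per class whose brightest probe was well above background in both dyes on all 4 arrays, in only 1 dye on all 4 arrays, or in no dye on all 4 arrays. The 15 inward rectifiers include 7 in the last group, while all 4 Nav beta and all 4 Cav beta subunits lie in the first.

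The 24 genes that were not measured were spread over several classes. Among Kv pore subunits they were Kcna1, Kcnc2, Kcng3, Kcnh5, Kcnh7, Kcnq1, Kcns2, Kcnv1 and Kcnv2, and among auxiliary subunits Kcne1 and Kcne2. Kcnq1 and Kcne1, which together form a slow delayed rectifier, were well above background in neither dye on any array. The calcium- or sodium-activated class lacked Kcnmb1, Kcnmb2, Kcnn2 and the sperm channel Kcnu1, which was only grouped with that class here. The inward rectifiers lacked Kcnj1, Kcnj5, Kcnj6, Kcnj8, Kcnj10, Kcnj13 and Kcnj16, of which Kcnj8 (the Kir6.1 subunit of vascular ATP-sensitive channels) was above background on 1 array in Cy5 and on 0 in Cy3. Scn9a, a sodium channel of sensory neurons, was above background on 1 array in each dye, and the R-type calcium channel gene Cacna1e on none. For these genes no ratio can be given at this signal, which is not the same as absence of the RNA.

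Among Nav pore subunits 8 of the 9 genes taken by the name rule were measured. Scn10a, which encodes the tetrodotoxin-resistant channel Nav1.8 of nociceptors, had ratios of -2.77, -2.33, -0.09 and -1.23. All 4 lay on the Cy3 side, but array 3 was near 0 and the gene did not pass (mean -1.60 ± 0.47, adjusted p = 0.175). Scn11a, the related Nav1.9 gene, had a mean of 0.04 (adjusted p = 0.956), with a value of 1.08 on array 4 and negative values on the other arrays. Scn4a, the skeletal muscle channel, had ratios of -0.42, 0.02, -3.65 and -0.34 (adjusted p = 0.418). Its mean of -1.10 rested on array 3.

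At their brightest probes Scn1a, Scn3a and Scn7a had positive ratios on every array without passing the test. Scn1a (Nav1.1) had ratios of 3.75, 0.61, 1.71 and 0.52, positive on every array and largest on array 1 (mean 1.65 ± 0.58, adjusted p = 0.223). A second probe of Scn1a was well above background in Cy5 on all arrays and in Cy3 on none, so its ratio is not measured on the Cy3 side and is not given here. With every probe as a feature that probe passed (limma, adjusted p = 0.0417), again with Cy3 not above background. The Scn1a probes start 62476 bases apart. Bases 1 to 30 of each follow, to show the separate parts of the transcript that they read.
Scn1a probe a: taaacgaaaactctattacggagaaaactg
Scn1a probe b: ttttgacaaactgtgtatttatgacaatga
Scn3a (Nav1.3) had 1.19, 0.46, 0.68 and 2.14 (mean 1.12 ± 0.32, adjusted p = 0.166), positive on all arrays, with its other measured probes at 0.11 and 1.13, the latter above background in Cy3 on 1 array. Scn7a, which encodes the sodium-sensing channel Nax, was well above background in Cy5 on 4 arrays and in Cy3 on 0. With the Cy3 side set at the lowest signal counted as above background, its Cy5 signal exceeded Cy3 at least 2.12-fold, without passing the test (adjusted p = 0.113). Scn8a (Nav1.6) had a mean of 0.00 ± 0.20, with values between -0.39 and 0.40. Its probe had a mean log2 intensity of 16.41, beside 16.64 for Kcna4 and 15.92 for Scn3b. A second measured Scn8a probe read 0.19, and a further probe was above background on 1 array in Cy5 and on 0 in Cy3. With median centring Scn8a stood at 1.13 and passed (adjusted p = 0.0333).

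The Nav beta subunits, which anchor the pore subunits and change their gating, were all measured. Scn3b had -1.69, 0.67, 0.04 and -0.87, with both signs present (adjusted p = 0.580). Scn4b stood at 0.02, with all 4 values within 0.07 of 0, and Scn2b at -0.22 (adjusted p = 0.959 and 0.718).

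The Cav alpha1 pore subunits held no called gene among 9 measured (2 at an unadjusted p under 0.05), with a median ratio of 0.01. Cacna1c, the L-type channel Cav1.2 of heart, smooth muscle and bone cells, had -2.81, -0.56, -0.17 and -2.45. All values lay toward Cy3, but arrays 1 and 4 were far from arrays 2 and 3 (mean -1.50 ± 0.52, adjusted p = 0.217). Cacna1s, the L-type channel of skeletal muscle, had 1.08, 0.67, 0.77 and 0.45, a smaller ratio with less spread (mean 0.74 ± 0.18, adjusted p = 0.136), and its other probe stood at 0.03. With median centring it passed at a ratio of 0.96 (adjusted p = 0.0395). Cacna1d, a further L-type gene of excitable and secretory cells, had a mean of 0.20 (adjusted p = 0.594), and its other probe -0.47.

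T-type channels open near the resting potential. Cacna1h (Cav3.2) had -0.02, -0.05, -0.15 and -0.27, with a 95% interval from -0.53 to 0.28, and its second probe read -0.13. Cacna1i (Cav3.3) had a mean of 0.01 ± 0.18. Cacna1g (Cav3.1) stood at 1.0 ± 0.45 (adjusted p = 0.306), with a negative value of -0.25 on array 1 and 1.15, 2.48 and 0.63 on the others, and its second probe read 0.86. The T-type genes had no common direction.

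Accessory subunits of the Cav channels, which move the pores to the membrane and set their kinetics, held no called gene among 16 measured (3 at an unadjusted p under 0.05). In the alpha2delta family, the binding site of gabapentin, Cacna2d1 had 0.27, 0.25, 1.26 and -0.28 and Cacna2d2 had -0.16, -0.29, -0.50 and -0.05. Cacna2d4 lay toward Cy3 on every array, at -1.0, -0.48, -0.51 and -0.22 (adjusted p = 0.227). Among beta subunits, Cacnb4 had -0.72, -0.26, -0.52 and -0.51 (mean -0.50 ± 0.17, adjusted p = 0.213), though with median centring in place of loess its ratio was 0.09. Cacnb3 split between the arrays, with 0.20 and 0.29 on arrays 1 and 3 and -1.20 and -0.96 on arrays 2 and 4.

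Of the gamma subunits, which include regulators of AMPA-type glutamate receptors, Cacng5 stood apart. It had -1.35, -1.01, -3.95 and -3.12, with Cy3 well above background on 4 arrays and Cy5 on 0. Its Cy3 signal exceeded Cy5 at least 4.13-fold, without passing the test (adjusted p = 0.121). With the scanner software's own ratios it passed (adjusted p = 0.0340), again with Cy5 not above background. Cacng7 had -2.69, -0.72, 1.66 and -0.60, and Cacng6 had 0.43, -0.20, -0.05 and -0.63; neither had a common sign across arrays. A second probe of Cacng7 read 0.84, 0.46, 0.48 and 0.44 (mean 0.56, adjusted p = 0.193 with every probe as a feature), positive on every array and opposite to the mean of -0.59 at the brighter probe. The 5 other gamma genes had mean ratios between -0.08 and 0.56.

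**Figure D3:**
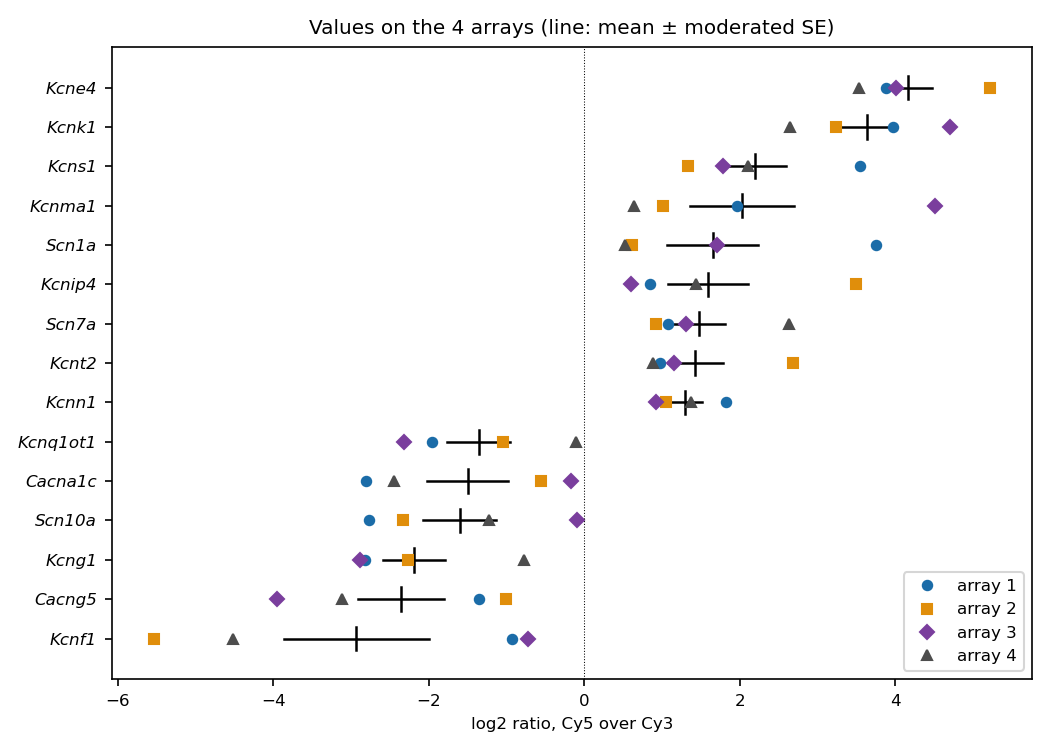
Log2 ratio of Cy5 over Cy3 on arrays 1 to 4 (symbols) for 15 genes, with the mean and its moderated SE (black). They are those of the genes named by rule with 1 sign on all arrays and a mean ratio of at least 1 in size. Scn3a and Kcnt1 meet the same limits and are not drawn. The Kcne4 values lie between 3.53 and 5.22 and the Kcnk1 values between 2.65 and 4.70, whereas Kcnf1 ranges from -5.54 to -0.73; Cy3 of Scn7a and Cy5 of Cacng5 were not well above background.

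In the Kv auxiliary class, Kcne4 was called among 11 measured genes. It encodes a single-span subunit that damps Kcnq1 and some Kv1 channels. The ratios were 3.88, 5.22, 4.01 and 3.53, all toward Cy5, with a mean of 4.16 ± 0.31, or 17.9-fold higher in Cy5 (limma, adjusted p = 0.0118). Its second probe gave 4.96, 6.51, 5.99 and 4.60 (adjusted p = 0.00872 with every probe as a feature), so both readings stood well apart from 0. Both probes were well above background in both dyes on all arrays. Partners of Kcne4 were not measured or not called: Kcnq1 was above background on no array, Kcna1 on 1 in each dye, and Kcna3 had a mean of 0.41 (adjusted p = 0.425).

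The other single-span subunits had small ratios, -0.13 for Kcne3 (adjusted p = 0.868) and 0.40 for Kcne1l (adjusted p = 0.369). Kcnip4, one of the calcium-binding proteins that escort Kv4 channels, had 0.85, 3.49, 0.60 and 1.44, positive throughout and highest on array 2 (adjusted p = 0.196), and was above background in Cy3 on 2 arrays. Its relatives Kcnip1, Kcnip2 and Kcnip3 had means of 0.16, 0.24 and -0.02. The cytoplasmic beta subunit Kcnab1 had -0.03, 0.46, 0.48 and 0.05, and Kcnab2 had a mean of -0.62 (adjusted p = 0.341).

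The Kv pore subunits are the largest class and none of the 31 measured was called (7 at an unadjusted p under 0.05). Among them are silent subunits, which form no channel alone but change the pores they join. Kcns1 had 3.55, 1.34, 1.79 and 2.11 (mean 2.20 ± 0.39, adjusted p = 0.0714), above 2-fold toward Cy5 on every array. Kcng1 had -2.82, -2.27, -2.88 and -0.77 (mean -2.19 ± 0.40, adjusted p = 0.0756), toward Cy3. With median centring both passed, at adjusted p-values of 0.0275 and 0.0470.

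Kcnf1, a further silent subunit, had ratios of -0.93, -5.54, -0.73 and -4.52. All were toward Cy3, but arrays 2 and 4 stood far from arrays 1 and 3 (mean -2.93 ± 0.93, adjusted p = 0.193), and its second probe had a mean of -1.48. Kcnb2, a pore that such subunits join, had a mean of 0.07 (adjusted p = 0.853). The silent subunits thus lay on both sides. Kcns1 and Kcns3 (0.82, limma, adjusted p = 0.215, above background on 3 arrays in each dye) lay toward Cy5. Kcnf1 and the brighter probe of Kcng1 lay toward Cy3. Kcng2 and Kcng4 had smaller means, -0.14 and -0.34.

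Kcnh1, the ether-à-go-go channel Kv10.1, had ratios of -0.87, -0.80, -0.81 and -0.63 (mean -0.78 ± 0.16, limma, adjusted p = 0.0969). Cy3 stood well above background on 3 arrays and Cy5 on none. These ratios and their small spread are therefore not measured on the Cy5 side, and only a bound of at least 1.33-fold can be given. Kcnh1 passed in 5 of 16 alternative settings, again with Cy5 not above background. Among Shaker-type genes (Kcna), Kcna2 had a mean of -0.91 (adjusted p = 0.256). Kcna4 had -0.57, 0.16, -0.89 and -0.25, and Kcna7 had -0.81, 0.91, -0.99 and -0.27, so neither had a common sign. For the M-current genes Kcnq3 and Kcnq5, means were 0.17 and 0.92 (adjusted p = 0.663 and 0.334).

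Some genes gave different readings at different probes. Kcng1 had 0.18 at its second probe, beside -2.19. Bases 1 to 30 of both are shown because a statement on the gene depends on which is read.
Kcng1 brighter probe: ttcatcccagttcgggtgggtagggcaaca
Kcng1 other probe: tgttaccgggagacaactcgcactatgact
The Kcng1 probes start 7475 bases apart (chr2:168087201-168087260 and chr2:168094676-168094735, mm9, minus strand). Over the 38 channel genes with several measured probes, the median difference between the highest and lowest probe was 0.52, and 18 genes had a difference below 0.50. In 16 of the 38 the probes lay on both sides of 0. For some of these genes the readings were small, as for Kcnk15 (-0.03 and 0.02) and Cacna1i (-0.21 and 0.01).

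**Figure D4:**
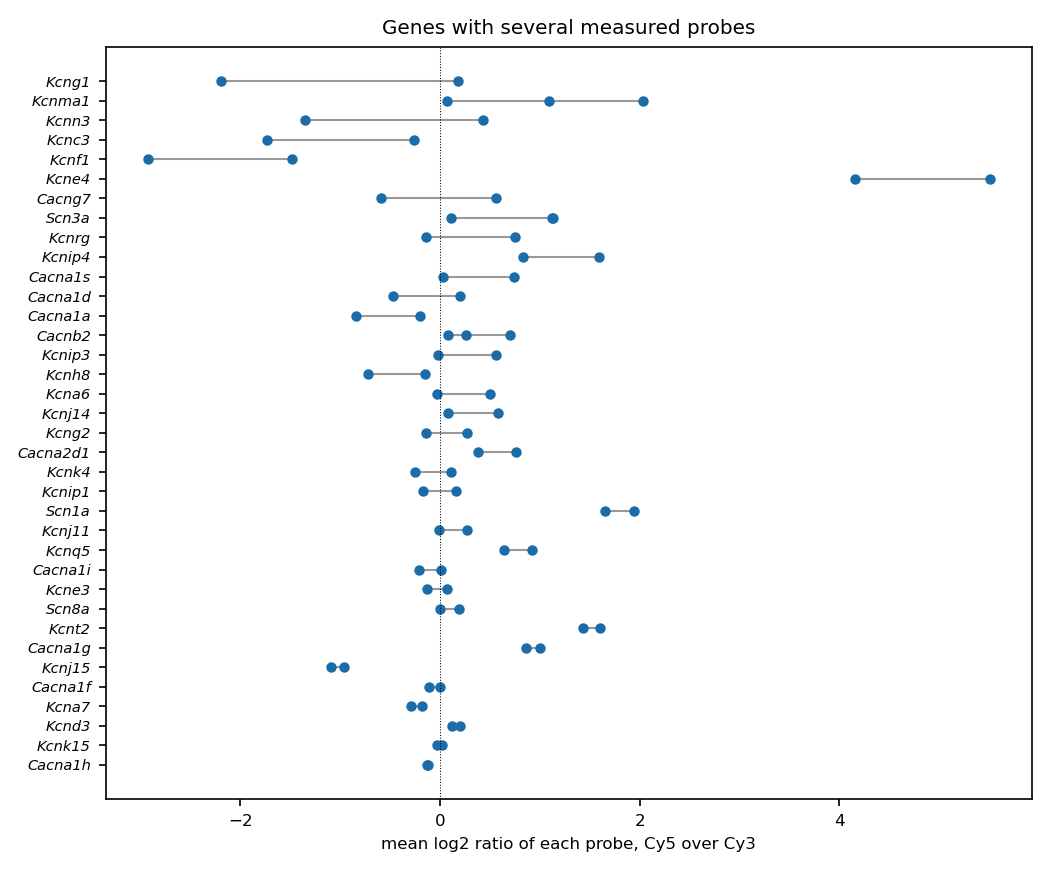
Mean log2 ratio of every measured probe (points) for 36 of the 38 channel genes with more than 1, joined by a line and ordered by the difference between probes; some probes, the second of Scn1a and of Kcnt2 among them, had 1 dye above background on no array. Kcng1 and Kcnma1 have the widest differences among the genes drawn, 2.37 and 1.96, and both Kcne4 probes lie at 4.16 or higher. The lowest Kcnma1 probe was above background in Cy3 on 1 array.

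The potassium channels opened by calcium or sodium had no called gene among 8 measured (5 at an unadjusted p under 0.05). The median size of their ratios was 1.25, beside 0.40 over all measured channel genes. Kcnma1, the pore of the large-conductance BK channel, had 1.96, 1.01, 4.51 and 0.64, all toward Cy5 and highest on array 3 (mean 2.03 ± 0.67, limma, adjusted p = 0.203). Its 3 probes ranged from 0.07 to 2.03, the lowest above background in Cy3 on 1 array. The remaining probe had a mean of 1.09, positive on every array (limma with every probe as a feature, adjusted p = 0.0596). The BK beta subunits did not share the direction of Kcnma1. Kcnmb3 had a mean of -1.63 (limma, adjusted p = 0.164), with 0.03 on array 2 and Cy5 above background on 2 arrays. Kcnmb4 had a mean of -0.01, and Kcnmb1 and Kcnmb2 were not measured. Kcnn1, a small-conductance SK channel, had 1.82, 1.05, 0.92 and 1.37 (mean 1.29 ± 0.22, adjusted p = 0.0636), positive on each array, with Cy3 above background on 2; it passed with median centring (adjusted p = 0.0263).

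Kcnn4, the intermediate-conductance channel found in blood and bone cells, had -1.42, -2.85, 0.86 and -0.89, with array 3 on the other side of 0 (adjusted p = 0.385). The sodium-activated channels Kcnt1 and Kcnt2 pointed to opposite dyes. Kcnt2 had 0.98, 2.68, 1.15 and 0.89 (mean 1.43 ± 0.35, adjusted p = 0.133), and its second probe was above background in Cy5 on 4 arrays and in Cy3 on 0, so its ratio is not used here. Kcnt1 had a mean of -1.21 (adjusted p = 0.232). The difference between the genes was not tested.

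Among inward rectifiers no gene of 8 measured was called (0 at an unadjusted p under 0.05), and none had 1 sign on all arrays. Kcnj15 (Kir4.2) had -2.16, 1.05, -1.56 and -1.70, with array 2 opposed (mean -1.09, adjusted p = 0.356), and its second probe read -0.96. Kcnj11, the Kir6.2 pore of ATP-sensitive channels, had 0.04, -0.06, 0.85 and 0.23, beside 0.58 for Kcnj14. Kcnj2, the classical strong rectifier Kir2.1, had a mean of 0.49 ± 0.79, the widest SE among inward rectifiers, with 3.50 on array 3 and -1.33 on array 4.

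In the K2P class, whose members carry background potassium current, 1 of 14 genes was called. Kcnk1 (TWIK1), which passes a weak leak current, had 3.97, 3.24, 4.70 and 2.65. Every value lay toward Cy5, with a mean of 3.64 ± 0.37, or 12.5-fold higher in Cy5 (limma, adjusted p = 0.0212), and the probe was well above background in both dyes on all arrays. Its mean normalized intensity was 12.10 (log2) in Cy5 and 8.46 in Cy3.

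The remaining K2P genes did not share that ratio, and 10 of the 14 in the class had a negative mean. Kcnk6 (TWIK2), the close relative of Kcnk1, had 2.44, 0.06, 0.73 and 0.12, positive on all arrays but close to 0 on arrays 2 and 4 (adjusted p = 0.366). The mechanosensitive channels Kcnk2 (TREK1), Kcnk4 (TRAAK) and Kcnk10 (TREK2) had means of 0.02, -0.25 and 0.76 (adjusted p = 0.961, 0.464 and 0.558). For Kcnk2 the 95% interval ran from -0.49 to 0.53. The acid-sensitive channels Kcnk3 (TASK1) and Kcnk9 (TASK3) stood at -0.19 and -0.33. Kcnk16 had -0.52, -0.45, -0.23 and -0.46 and Kcnk12 had -0.07, -0.26, -0.59 and -0.79, toward Cy3 on each array and not called. Kcnk15 had values between -0.23 and 0.10.

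Kcnq1ot1 is not a channel gene but the long RNA antisense to Kcnq1, which the name rule also took. Its probe had -1.96, -1.05, -2.32 and -0.11 (mean -1.36 ± 0.40, adjusted p = 0.174), toward Cy3, and was well above background in Cy5 on 2 arrays.

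Genes that work with these channels were read from lists chosen by function. The sodium-potassium pump, which builds the gradients that channels use, had 3 called genes of 14, beside 2.20% of all genes tested. Fxyd6, a regulatory subunit, was higher in Cy5, with 2.33, 1.47, 2.36 and 3.04 (4.92-fold, adjusted p = 0.0332). Fxyd5, a further regulatory subunit, was higher in Cy3, with -1.11, -1.75, -1.52 and -2.08 (3.06-fold, adjusted p = 0.0385). Not called were Atp1b1 (mean 1.47, adjusted p = 0.304) and Atp1b3 (-0.26, adjusted p = 0.516). Both calls were lost with the scanner software's ratios and whenever 1 array was left out, and that of Fxyd5 with scale normalization too.

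Among 33 measured partners and regulators of the channels, 0 were higher in Cy5 and 1 in Cy3 at an adjusted p under 0.05 in limma. Over all genes the shares were 1.31% and 0.886%. The called gene was Rem2, a small GTPase that inhibits Cav channels, with -3.55, -1.65, -3.74 and -2.72 (7.53-fold higher in Cy3, adjusted p = 0.0377). The call was lost with the scanner software's ratios (adjusted p = 0.0664), with no filter on dim probes (adjusted p = 0.0569) and whenever 1 array was left out (adjusted p from 0.0633 to 0.162). Calm2, a calmodulin gene, had a mean of 0.43 (adjusted p = 0.295) and passed with median centring, at 1.43 (adjusted p = 0.0209). Of 34 other ion channels (HCN, chloride, P2X, Piezo, acid-sensing and the like) and 31 genes of calcium release, entry and pumping, none was called by limma. Their medians were -0.18 and -0.26, with 7 members of each list at an unadjusted p under 0.05, beside 21.4% of all genes. The bright members Gja1 (connexin 43) and Hcn2 had means of 0.13 and -0.44 (adjusted p = 0.721 and 0.241).

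Markers of excitable and other cell types that could bring channel RNA were read on the same arrays. Neuron markers had a median ratio of 0.03 over 13 measured genes (1 higher in Cy5, Map2), and their summed normalized intensity ran from 74400 to 92800 in Cy5 and from 72200 to 96500 in Cy3. Such sums weigh the brightest probes most. Snap25 and Elavl4 had mean log2 intensities of 15.75 and 14.55, the other neuron markers 9.99 or less. Skeletal muscle markers had a median of -0.26 over 11 (0 called by limma, 2 at an unadjusted p under 0.05), with sums of 11500 to 16700 in Cy5 and 16700 to 23500 in Cy3, and Myh1, Myh2 and Mb above background on no array. Smooth muscle and pericyte markers had a median of 0.17 over 11 (1 higher in Cy3, Cnn1), with sums of 47000 to 58600 in Cy5 and 36000 to 69000 in Cy3, and Lmod1 above background on no array. Glial markers had a median of -0.06 over 11 (0 called, 5 at an unadjusted p under 0.05), with sums of 13000 to 25300 in Cy5 and 5590 to 12100 in Cy3. Pmp22, with a ratio of 1.47, weighed most in the glial sums, at 13.15 beside 8.48 or less for the other glial markers. Other lists moved more: cartilage markers had a median of 1.50 (3 of 10 higher in Cy5), leukocyte markers of 0.94 (2 of 13 higher in Cy5) and dental epithelium markers of -0.86 (2 of 8 higher in Cy3). Endothelial, osteoclast and osteocyte markers had medians of 0.05, 0.26 and 0.29, with 1 call in all (Ptprz1, higher in Cy5). Their part in the channel results was not tested.

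The calls rest on all 4 arrays more than the ratios do. Across 16 alternative settings the ratio of Kcne4 lay between 3.81 and 4.84 and that of Kcnk1 between 3.29 and 4.20. Each gene was called in 13 of the 16, the fit without array 3 among them. The exceptions were the fits without array 1, without array 2 and without array 4, where the adjusted p was 0.0554 to 0.0698 for Kcne4 and 0.0726 to 0.111 for Kcnk1.

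**Figure D5:**
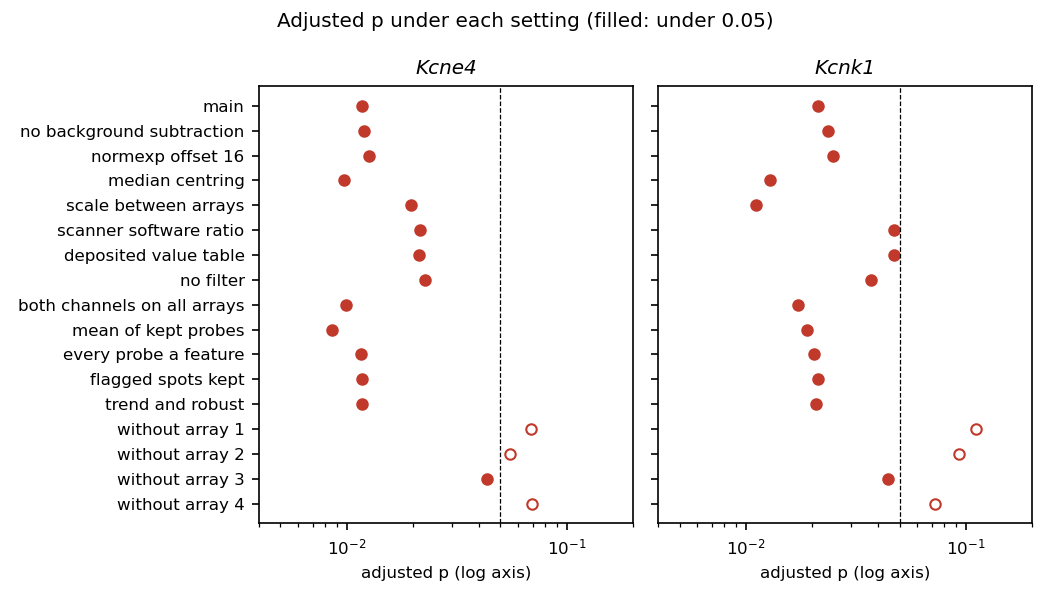
Adjusted p (log axis) of Kcne4 and Kcnk1 under the main setting and 16 alternatives; filled points lie under 0.05, marked by the dashed line. Open points appear in the fits without array 1, array 2 or array 4.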

How the data were processed

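The authors' scanner files, per the file headers, come from Agilent Feature Extraction 10.7.3.1 and give mean spot and median background intensity for 62976 spots in Cy5 and Cy3. They also hold deposited processed intensity values, a log10 ratio and flags. A deposited value table holds log10 ratios; 99.3% to 99.4% of its probes lay within 1e-04 of the scanner ratio. For later steps by the authors, details are not given in the sources used here.

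Here intensities were corrected by normexp (offset 50) and loess in limma 3.58.1 under R 4.3.3, with 3671 control spots at weight 0. Outlier flags removed 949 spot values, spots of a probe were averaged, and 44239 probes passed the filter. A gene is represented by its brightest probe. Over 37409 features, of which 18738 are genes, lmFit and eBayes tested the mean ratio against 0, two-sided, with Benjamini-Hochberg adjustment; 1.64% of features had an adjusted p under 0.05. SEs and 95% intervals are moderated. Lower bounds use loess and Aquantile values, are open to dye bias, and set the dim dye at the higher of its own value and the lowest signal well above background on each array. Symbols follow a RefSeq table of GRCm38.p6, used for names alone; 27242 probes matched by accession.

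Genes named are the called ones and, per class, up to 3 with the largest ratio of 1 sign, up to 2 of the brightest, and those above background in 1 dye alone or with probes of opposite ratio; other lists add called members and up to 2 bright uncalled ones each. Any other member was chosen after its values were seen. The members and lists were chosen with earlier results of these data known. The fit was tested on simulated data. Alternatives covered background, normalization, filter, probe choice, flags, variance model and each array left out. Some genes are not reported here or drawn.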

Additional observations from a re-analysis of the deposited data

Results flagged for a closer look

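Of 39 named channel genes tested for a single distant array, 1 stood out, where chance alone would give about 5% of groups. The ratio of Kcnt2 on array 2 was 2.68, far from 0.89 to 1.15 on the other arrays.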

How the results depend on the processing

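Beside 2 genes higher in Cy5 and 1 in Cy3, median centring gave 6 and 3, with a median channel ratio of 0.18 while the median of all genes was 0.21; the scanner ratios and the deposited value table each gave 3 in Cy3, and offset 16 and the trended robust fit each gave 2. With every probe as a feature there were 3 in Cy5, Scn1a among them through its second probe. Calls over all genes were 59.7% in Cy5, beside 82.9% of 1127 and 233 with median centring. Leaving out array 1, 2 or 4 left 0 channel calls in limma and leaving out array 3 left 2 in Cy5 and 1 in Cy3, with 18 to 27 members at an unadjusted p under 0.05, against 29. Over all genes there were 0 without array 1 or array 2, 16 and 13 without array 4 and 101 and 72 without array 3, beside 246 and 166. Called members of the other lists numbered 1 in Cy5 and 3 in Cy3, 7 in Cy5 with median centring, and 0 and 0 with the scanner ratios or the value table; without 1 array they ranged from 0 to 0 in Cy5 and from 0 to 1 in Cy3. Some uncalled genes changed sign, Cacnb4 (-0.50), Cacng7 (-0.59) and Hcn2 (-0.44) among them. With median centring ratios were 0.41 for Cacna1h, 0.20 for Cacna2d2, 0.25 for Cacnb3, 0.09 for Cacnb4, 0.10 for Cacng6, 0.79 for Kcna4, 0 for Kcna7, 0.40 for Kcnk15, 0.56 for Scn3b, 0.41 for Atp2b2, 0.21 for Hcn2 and 0.54 for Atp1b3. With the scanner ratios and with the value table they were -0.01 for Cacna1i, -0.26 for Scn8a and -0.16 for Slc8a3; Cacna1i was -0.01 with scale normalization and -0.10 with the mean of probes. Leaving out 1 array gave a range of -0.29 to 0.06 for Cacng6, -1.33 to 0.11 for Cacng7, -0.07 to 0.04 for Kcnk15, -0.30 to 0.02 for Atp2b2, -0.10 to 0.08 for Cacna1i, -0.13 to 0.13 for Scn8a and -0.06 to 0.09 for Slc8a3. The causes were not tested. Each ratio already pairs the RNAs of its array, so the test of the mean ratio is a paired one. The arrays form 1 group, with no further pairing between them. Signal over background limits the dim genes.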

Other observations

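Channel genes that neighbour each other were read side by side, as values alone and after they had been seen. On chromosome 2 (mm9) the measured Scn3a, Scn1a and Scn7a probes lie between 65297940 and 66514172, with ratios of 1.12 and 1.65 at the brightest probes of Scn3a and Scn1a. For Scn7a, with Cy3 not above background, the Cy5 signal exceeded Cy3 at least 2.12-fold. Scn9a, between Scn1a and Scn7a, was not measured. At the brightest probes none of these genes passed the test over all features (limma, adjusted p from 0.113 to 0.223). The other measured Scn3a probes read 0.11 and 1.13, the latter above background in Cy3 on 1 array. The name Scn2a1 does not match the name rule, so a gene of that name was not read.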
